A study of Mus musculus with 15 samples.

Results

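The comparison set 5 intrahepatic cholangiocarcinomas (ICC) of p53LKO mice against 5 hepatocellular carcinomas (HCC) of p53f/f mice, which are 10 of the 15 liver tumors measured in the series. The tumors were taken by their labels. The p53LKO mice lacked Trp53, the gene of the tumor suppressor p53, specifically in the liver, while the p53f/f mice were the Trp53flox/flox controls with intact Trp53. All mice were of C57/BL6J background and had received the liver toxin CCl4 into the peritoneum at 0.5 µl per g body weight for 16 weeks from the age of 6 weeks, with an interval of 3 days per the labels. Both sexes entered the study. The study describes the mice of the arrayed HCC as male, and no sex is stated for the ICC. The study gives its ages at sacrifice, but which of them applied to each arrayed animal was not given in the sources used here. The Cre line that drives the deletion was likewise not given there.

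Genotype and tumor entity differ together here, because the ICC were all p53LKO and the compared HCC were all p53f/f. The 2 cannot be told apart from these 10 arrays. The study reports that tumors formed later in p53f/f than in p53LKO mice. Age at sacrifice may therefore differ between the groups as well, and its part was not tested. The ICC came from 5 mice (3731, 3733, 3976, 3977 and 5283) and the p53f/f HCC from 4 mice (3681, 3715, 3716 and 3717), with 2 tumors of mouse 3717. The p-values thus measure the spread between tumors. Of the 5 p53LKO HCC, the remaining group of the series, mainly the levels are given beside, and 4 of the 5 ICC mice also carried one of those HCC. Values per tumor are listed throughout in the order 3681 T1, 3715 T2, 3716 T1, 3717 T1 and 3717 T2 for p53f/f HCC and 3731 T3, 3733 T3, 3976 T8, 3977 T5 and 5283 T20 for ICC.

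HCC arises from hepatocytes or takes on their character, and hepatocytes secrete most plasma proteins, detoxify drugs and make bile under the control of transcription factors such as HNF4A. ICC has the character of the bile duct lining, whose cells carry cytokeratin 7 and 19, EPCAM, SOX9 and osteopontin (Spp1) and form glands. ICC is also known for a dense, collagen-rich stroma made by activated fibroblasts and stellate cells. Total RNA came from whole tumor tissue, so tumor cells, stroma and immune cells were measured together, and fewer cells of a type cannot be told apart from less RNA per cell.

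RNA was measured with 1-colour Agilent arrays of 55681 probes. A level is the log2 of the processed signal relative to the 75th percentile of its array, so 0 means as bright as that percentile. It compares 1 probe between arrays, and not 1 gene with another. All ICC lay in the lower row of their slides and all p53f/f HCC in the upper row. On slide 1 were 4 p53f/f HCC and 1 ICC (3731 T3), and on slide 2 were 1 p53f/f HCC (3717 T2) and 4 ICC. Between 55.1% and 70.1% of the probes were well above background in p53f/f HCC, against 42.5% to 47.0% in ICC. The negative control probes lay at -7.11 to -5.81 in p53f/f HCC and at -5.03 to -4.51 in ICC. The p53LKO HCC had 61.0% to 62.1% in the upper row and 37.0% and 46.4% in the lower row. Those in the upper row were all on slide 2 and those in the lower row on slide 1, so row and slide cannot be told apart within that group. Row and group cannot be told apart within the 10 arrays. Only the p53LKO HCC fill both rows, and a model of all 15 arrays with the row as a term takes the row effect from them alone, where it holds the slide as well. It is called the row model below, and the fit of the 10 arrays with the slide as a block the slide model.

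The targeted gene was checked first. The probe annotated as Trp53 gave -0.76, -1.27, -0.68, -1.07 and -1.27 in p53f/f HCC and -4.19, -3.18, -2.31, -2.98 and -2.71 in ICC. Every ICC lay below every p53f/f HCC, and the difference was -2.07 ± 0.32 (adjusted p = 0.001). Here and below, a difference is ICC minus p53f/f HCC on the log2 scale with its standard error, and the adjusted p is that of limma over all probes tested. In p53LKO HCC the levels were -2.86, -3.86, -2.80, -3.20 and -2.75. The array file places this probe outside the Trp53 gene, on chromosome 17 (mm9 54560025 to 54560084). Whether its sequence matches the deleted part of Trp53 was not tested. The probe therefore gives a transcript level under that annotation and does not test the deletion itself.

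Of 35703 probes tested, 6937 (19.4%) passed an adjusted p under 0.05 with a change of over 2-fold, 2652 (7.43%) higher and 4285 (12.0%) lower in ICC. With 1 probe per gene, 4012 of 17596 genes (22.8%) passed, 1923 (10.9%) higher and 2089 (11.9%) lower. The median log2 fold change over these genes was -0.17. The split depended on the scaling and the filter. Scaled to the 7 spike-in probes, 7331 probes were higher and 930 lower, so that 88.7% instead of 38.2% of the calls were higher, and the median over all probes moved from -0.31 to 0.43. Fitted again on the 20786 probes detected above background in all 10 tumors, the calls were 1899 higher and 1858 lower, and without any filter they were 14655 higher and 4477 lower. The row model called 1207 higher and 1616 lower. Of the 6937 calls, 30.4% passed there again and 99.3% kept their sign. With slide and row both as terms, 9 probes passed, all higher. The groups did not overlap for 4818 genes (27.4%). The counts of every list below are to be read against the shares of 10.9% higher and 11.9% lower. The counts of a list are also given under 3 alternatives, always in the order slide model, row model and spike-in scaling, where they moved by over 1.5 times. Of the 7549 probes tested that were well above background on 0 ICC arrays, 23.4% were called lower. Some differences given below rest on levels partly near background. Of the genes named as higher, Amph, Epcam, Lbhd2, Lox, Reg3g and Sfrp1 were well above background on 1 p53f/f array and Ccl17, Cdh17, Col8a1, Igf2, Krt7 and Sult2a4 on 2. Of those named as lower, Adrb3 and Cyp4a12a were so on 1 ICC array and Keg1 and the Trp53 probe on 2.

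The bile duct genes split into a few large rises and a larger part that differed little. Of the 21 tested members of the biliary list, 7 were higher, 2 lower and 12 did not pass, with a median log2 fold change of 0.02 against -0.17 over all genes. Epcam, which encodes an adhesion molecule of ductal cells, lay at -6.50, -5.49, -5.05, -6.32 and -1.27 in p53f/f HCC and at 1.34, 2.34, 2.50, 1.90 and 3.31 in ICC. The lowest ICC was above the highest p53f/f HCC, tumor 3717 T2, which was the only p53f/f HCC with this probe well above background. Epcam rose by 7.2 ± 0.87 (adjusted p = 0.000271) and passed the row model (adjusted p = 0.0418). Krt19, the keratin that defines the duct lining, was at -3.65, -2.31, -2.48, -4.47 and 0.88 in p53f/f HCC and at 2.29, 1.59, 1.77, 1.85 and 2.81 in ICC. Again only 3717 T2 came near the ICC, and the rise was 4.47 ± 0.81 (adjusted p = 0.00251), which did not pass the row model (adjusted p = 0.281). Within slide 2, where 3717 T2 was the only p53f/f HCC, the difference was 3.78 for Epcam and 1.13 for Krt19. The p53f/f HCC have no spread of their own there, so these differences are a description only. Spp1, encoding the secreted phosphoprotein osteopontin, stood at 0.97, 2.19, 3.78, 0.16 and 4.46 and at 6.66, 7.02, 5.71, 6.34 and 6.41. The groups did not overlap, and Spp1 rose by 4.12 ± 0.73 (adjusted p = 0.00222), in the row model with adjusted p = 0.0294.

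Krt7 was less uniform. It gave -5.11, -5.70, -3.57, -4.51 and -0.93 in p53f/f HCC and -1.14, -0.73, -1.15, -0.75 and -3.68 in ICC, so that 3717 T2 lay among the ICC and 5283 T20 among the p53f/f HCC. Its rise of 2.47 ± 0.87 only just passed (adjusted p = 0.0473) and did not pass the slide model (adjusted p = 0.358) or the row model (adjusted p = 0.736). Krt7 no longer passed when any 1 tumor other than 3717 T2 and 5283 T20 was left out (2.04 to 2.57, adjusted p = 0.0676 to 0.106). Sox9, the transcription factor of duct and progenitor cells, differed by 0.95 ± 0.25 (adjusted p = 0.0155) and stayed under 2-fold. Sox9 passed without 3717 T2 or 3977 T5 (1.04 to 1.14, adjusted p = 0.00374 to 0.0184). Cftr, the chloride channel of the ducts, differed by 0.02 ± 0.33 (adjusted p = 0.961). The members counted as lower were Onecut1 and Slc4a2. Onecut1, a transcription factor shared by liver and ducts, was well above background in all p53f/f HCC and in no ICC and was too dim for a bound on its fall (adjusted p = 0.00236). The anion exchanger Slc4a2 fell by 1.01 (adjusted p = 0.0316). Slc4a2 no longer passed when any 1 tumor other than 3717 T2, 3976 T8 and 5283 T20 was left out (-0.88 to -1.04, adjusted p = 0.0519 to 0.0734). The remaining members that rose were the surface protein Cd24a, by 3.69 ± 0.72 (adjusted p = 0.00348), the epithelial transcription factor Ehf, by 3.26 ± 0.73 (adjusted p = 0.00698), and the RNA-binding Bicc1, by 1.48 ± 0.37 (adjusted p = 0.0112). None of these 3 passed the row model (adjusted p = 0.0949 to 0.17). The list had 3, 2 and 9 higher and 1, 1 and 0 lower under the 3 alternatives, and its median was 0.77 under spike-in scaling. Of the 9 defining markers of ducts, 4 passed in the direction of the label, 4 did not pass and 1 was too dim to be tested. The median level of the whole list on an array was 1.46 to 1.87 in ICC, -0.74 to 0.88 in p53f/f HCC and 0.13 to 0.97 in p53LKO HCC.

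**Figure D1:**
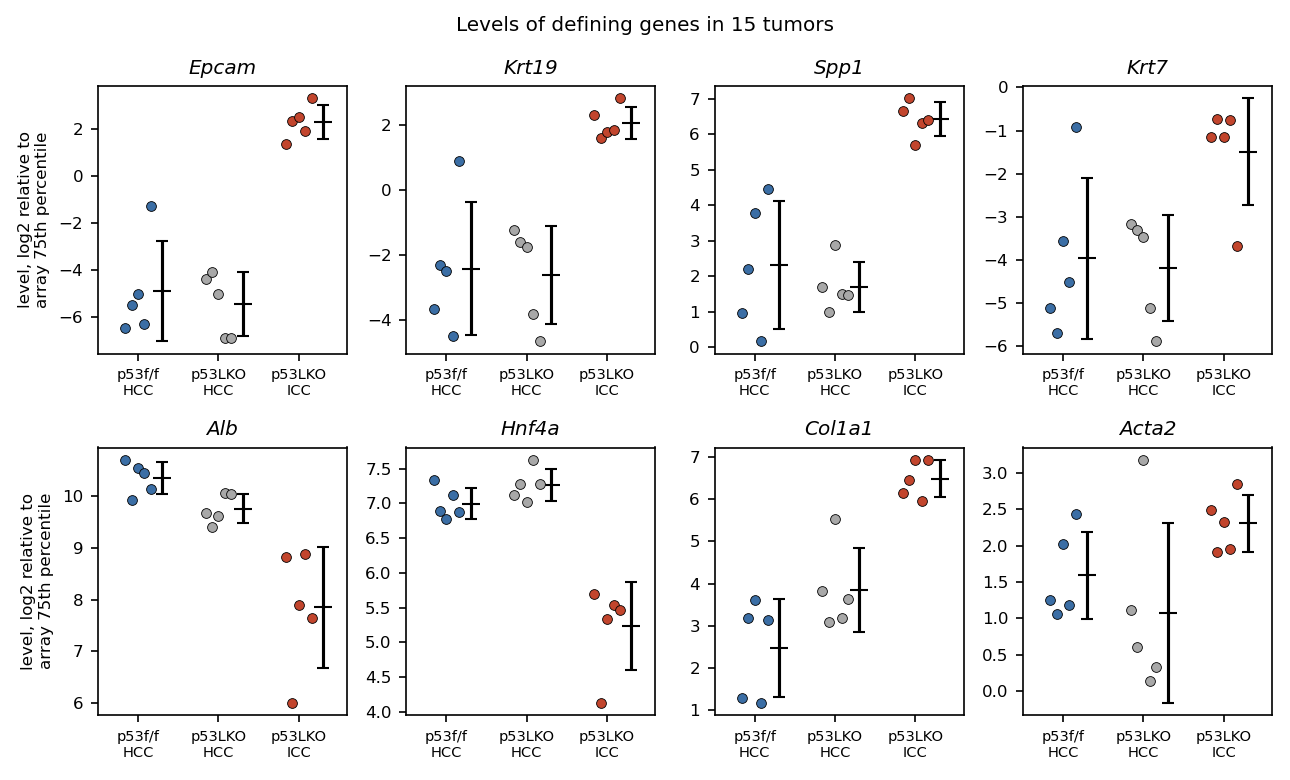
Levels of 8 defining genes, as log2 relative to the 75th percentile of the array, with 1 point per tumor, a bar at the mean and whiskers of 1 SD (n = 5 per group). Epcam, Krt19 and Spp1 were higher in every ICC than in every p53f/f HCC, Alb and Hnf4a lower and Col1a1 higher, while Krt7 and Acta2 overlapped.

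Among the other keratins, Krt20, a marker of intestinal and gastric lining, rose by 4.14 ± 0.91 (adjusted p = 0.00641) and the basal keratin Krt14 by 2.19 ± 0.42 (adjusted p = 0.00332), both also in the row model. Krt18, which hepatocytes and duct cells share, differed by -0.43 ± 0.17 (adjusted p = 0.0752), and its sign turned under spike-in scaling and quantile normalization. Krt23 fell by 2.29 and Krt5 by 2.45, and neither passed the row model (adjusted p = 0.178 and adjusted p = 0.509). Of 10 keratins tested, 2 were higher and 3 lower (2, 2 and 3 higher and 2, 1 and 1 lower under the 3 alternatives). Of 25 genes of cell junctions, 4 were higher and 6 lower (2, 1 and 5 higher and 4, 4 and 4 lower under the 3 alternatives). Cdh17, the liver-intestine cadherin, rose by 4.95 ± 0.90 (adjusted p = 0.00259). Gjb1, the main gap junction protein between hepatocytes, fell by 2.79 (adjusted p = 0.000658), the claudin Cldn14 by 2.14 (adjusted p = 0.000383) and Cldn1 by 3.60 (adjusted p = 0.00259). Cdh17, Gjb1 and Cldn14 also passed the row model, and Cldn1 did not (adjusted p = 0.07). E-cadherin (Cdh1) differed by -0.96 ± 0.28 (adjusted p = 0.024) and stayed under 2-fold. Cdh1 passed without 3715 T2 or 3716 T1 or 3733 T3 or 3977 T5 (-1.01 to -1.15, adjusted p = 0.00845 to 0.0308).

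The hepatocyte genes fell together in size but not evenly between tumors. Of 30 secreted plasma proteins tested, 28 fell and 0 rose, with a median log2 fold change of -1.96. Alb, which encodes albumin, was at 10.71, 9.93, 10.55, 10.46 and 10.15 in p53f/f HCC and at 8.83, 5.99, 7.90, 8.89 and 7.64 in ICC. All ICC were lower, and ICC 3733 T3 was the lowest by far. Alb fell by 2.51 ± 0.48 (adjusted p = 0.0033), and by 2.05 without 3733 T3. Apoa1, the main protein of HDL particles, was at 9.17, 6.62, 6.51, 8.70 and 8.40 and at 5.09, 2.07, 4.57, 5.64 and 4.58. It also did not overlap and fell by 3.49 ± 0.71 (adjusted p = 0.00452). The clotting factor gene F2 (prothrombin) fell by 1.99 ± 0.38 (adjusted p = 0.00317), Apoc3 of triglyceride-rich particles by 3.1 (adjusted p = 0.00306) and Serpina6, the cortisol carrier, by 2.80 (adjusted p = 0.0178).

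Albumin RNA was still far above background in each ICC, the lowest of which lay 5.99 above the 75th percentile of its array. The list median per array was 8.12 to 9.0 in p53f/f HCC, 7.75 to 8.41 in p53LKO HCC and 7.06, 4.56, 6.36, 6.96 and 5.91 in ICC. In the row model 2 of the 30 passed, in the slide model 14 and under spike-in scaling 17, all of them lower. The list median was -1.92, -1.79 and -1.21 there. Of the genes just named, in the slide model Alb, Apoa1, F2 and Apoc3 passed again and Serpina6 did not (adjusted p = 0.191), and in the row model Alb, Apoa1, F2, Apoc3 and Serpina6 did not (adjusted p = 0.0581 to 0.252).

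The proximal promoters of a few of these genes are shown, for a pair of hepatocyte genes that fell and a pair of biliary genes that rose. They are the 250 bases before the first listed transcript start, from RefSeq on GRCm38.p6, with matches to searched motifs in capitals. Alb lies at chr5:90460620-90460869 and Apoa1 at chr9:46228380-46228629, Spp1 at chr5:104434861-104435110 and Epcam at chr17:87635729-87635978, all on the plus strand.
Alb: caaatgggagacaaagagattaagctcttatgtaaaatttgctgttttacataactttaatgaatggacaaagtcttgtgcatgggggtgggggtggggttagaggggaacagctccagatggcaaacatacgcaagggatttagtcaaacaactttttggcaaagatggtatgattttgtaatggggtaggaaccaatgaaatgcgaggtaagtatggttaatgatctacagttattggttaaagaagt
Apoa1: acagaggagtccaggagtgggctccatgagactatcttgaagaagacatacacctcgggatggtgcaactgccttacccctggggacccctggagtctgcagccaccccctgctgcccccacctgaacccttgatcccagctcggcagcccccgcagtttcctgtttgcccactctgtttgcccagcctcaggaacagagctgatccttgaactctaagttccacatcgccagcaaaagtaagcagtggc
Spp1: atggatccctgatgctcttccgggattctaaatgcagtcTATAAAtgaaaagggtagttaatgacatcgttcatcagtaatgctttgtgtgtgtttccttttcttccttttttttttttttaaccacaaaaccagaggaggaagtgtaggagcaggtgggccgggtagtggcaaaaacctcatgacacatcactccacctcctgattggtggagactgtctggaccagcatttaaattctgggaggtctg
Epcam: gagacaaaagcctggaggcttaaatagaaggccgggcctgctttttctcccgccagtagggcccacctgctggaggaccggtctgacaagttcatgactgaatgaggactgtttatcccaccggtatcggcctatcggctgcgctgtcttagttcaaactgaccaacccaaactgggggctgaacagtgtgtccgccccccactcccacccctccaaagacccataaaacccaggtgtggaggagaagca

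Searched on both strands were the HNF4 core AAAGTCC, the FOXA motif TGTTTAC, the TEAD motif GGAATG and the TATA box TATAAA. Spp1 held TATAAA 211 bases before the start. Alb, Apoa1 and Epcam held none of the 4 in this window. The HNF1 half-site GTTAAT was planned but not searched, and it is present in the printed Alb and Spp1 sequences. AAAGTCC was in 0 of 23 matched promoters of the secreted proteins, in 1 of 17 of the metabolic enzymes, in 1 of 17 of the biliary list and in 3.65% of all 27025 promoters, and TGTTTAC was in 3 of 23, 0 of 17 and 1 of 17 (all promoters 3.09%). GGAATG was in 4 of 23, 1 of 17 and 1 of 17 (all promoters 12.6%), and TATAAA in 4 of 23, 5 of 17 and 1 of 17 (all promoters 12.97%). Krt19 and Sox9 had no entry.

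Enzymes of hepatocyte metabolism fell in 18 of 28 cases and rose in 0, with a median log2 fold change of -1.98. The largest falls were in amino acid breakdown. Sds, serine dehydratase, was at 4.04, 4.58, 4.99, 3.87 and 2.99 in p53f/f HCC and at 1.37, -3.09, -1.92, 1.02 and -0.13 in ICC and fell by 4.64 ± 0.80 (adjusted p = 0.0019). Hal, which opens histidine breakdown, fell by 4.50 ± 0.76 (adjusted p = 0.00173) and Ftcd of the same pathway by 3.99 ± 0.65 (adjusted p = 0.00139). Pck1 of gluconeogenesis fell by 2.30 ± 0.80 (adjusted p = 0.0455). Pck1 no longer passed when any 1 tumor other than 3715 T2, 3731 T3 and 3977 T5 was left out (-1.64 to -2.46, adjusted p = 0.0581 to 0.0973). Not all enzymes passed. The urea cycle enzyme Cps1 differed by -1.95 ± 0.78 (adjusted p = 0.0757). Cps1 passed without 3731 T3 or 3977 T5 (-2.35 to -2.42, adjusted p = 0.0341 to 0.0424). The list median was 4.77 to 4.99 in p53f/f HCC and 3.82, 0.77, 2.39, 3.86 and 2.39 in ICC, with 3733 T3 again lowest. In the row model 6 passed, in the slide model 7 and under spike-in scaling 12, and of the named ones in the row model Sds and Hal passed again and Ftcd and Pck1 did not (adjusted p = 0.103 to 0.149).

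**Figure D2:**
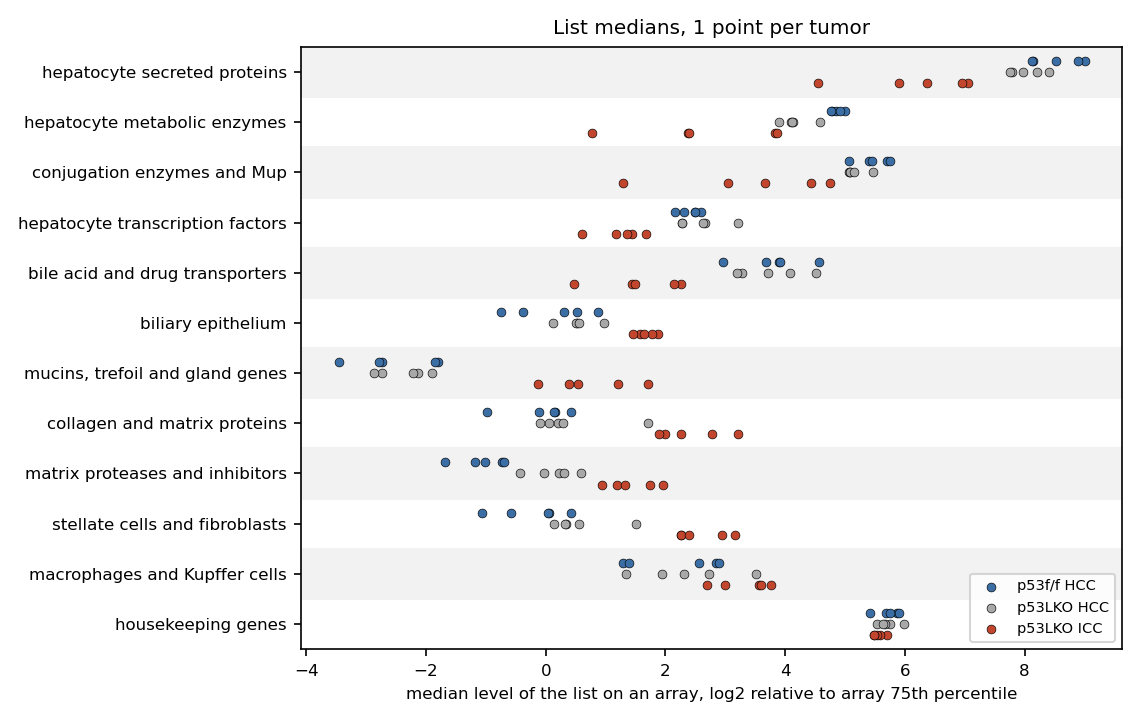
Median level of 12 gene lists on each array, in log2 relative to the 75th percentile of the array, with 1 point per tumor and the 3 groups in separate lanes. The 5 hepatocyte lists shown were lower in each ICC than in each p53f/f HCC, with ICC 3733 T3 the lowest on the secreted protein and metabolic enzyme lists. The collagen, protease, fibroblast, biliary and gland lists were higher in each ICC.

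Drug-metabolizing enzymes showed a mixed picture. Of 37 cytochrome P450 genes, 12 fell and 1 rose, with a median of -0.87, which was -0.12 under spike-in scaling (1, 1 and 3 higher and 3, 6 and 7 lower under the 3 alternatives). The gene that rose was Cyp1b1, a P450 of connective tissue and tumors rather than hepatocytes, from -4.46, -2.02, -2.05, -6.30 and -1.49 in p53f/f HCC to 3.55, 3.31, 3.12, 2.45 and 3.21 in ICC. Its rise was 6.39 ± 0.81 (adjusted p = 0.000347), in the row model with adjusted p = 0.0142. Cyp2d9 fell by 4.08 ± 0.61 (adjusted p = 0.000846) and Cyp2f2 by 3.79 ± 1.09 (adjusted p = 0.022). Cyp2f2 no longer passed without 3976 T8 (-3.35, adjusted p = 0.0551). Cyp2e1, which turns CCl4 into its toxic radical, was at 6.0, 6.99, 4.03, -1.06 and 6.39 and at 6.46, 4.27, 6.75, 7.82 and 5.38 and differed by 1.67 ± 1.36 (adjusted p = 0.361). Tumor 3717 T1 stood far below the rest for Cyp2e1 and 3716 T1 just below the lowest ICC, and the other 3 p53f/f HCC lay among the ICC. Cyp3a11, the main P450 induced by drugs, differed by -1.18 ± 0.73 (adjusted p = 0.23).

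Of 25 conjugation enzymes and major urinary proteins, 21 fell and 2 rose (median -2.31). In the row model 4 were lower, in the slide model 9 and under spike-in scaling 11, with 2 higher in each. Gstp1, a glutathione transferase, fell by 2.31 ± 0.33 (adjusted p = 0.000688), Ugt2b1, a glucuronyl transferase, by 4.47 ± 0.80 (adjusted p = 0.00229) and the urinary protein gene Mup20 by 1.98 ± 0.60 (adjusted p = 0.0268). Mup20 no longer passed without 3681 T1 or 3716 T1 or 3717 T2 (-1.86 to -1.94, adjusted p = 0.0511 to 0.0614). The genes that rose were the bile acid sulfotransferases Sult2a4, by 6.52 ± 0.86 (adjusted p = 0.000429), and Sult2a6, by 5.74 ± 0.79 (adjusted p = 0.000556). Sult2a4 was at -4.62, -1.20, -5.57, -4.82 and -4.68 in p53f/f HCC and at 2.45, 0.55, 1.88, 4.46 and 2.35 in ICC. The p53LKO HCC lay at 1.92, 2.98, 3.33, 3.85 and -0.08, within or near the range of the ICC. The Sult2a probes may share signal, since these genes are close copies. Cyp4a12a fell by 5.28 ± 1.40 (adjusted p = 0.0151), with p53f/f HCC from -2.32 to 5.26. Several of these genes are known to differ between male and female liver (Sult2a, Cyp4a12a, Cyp2d9, Mup20). The part of sex in these values was not tested. Cyp2d9, Gstp1, Sult2a4 and Sult2a6 also passed the row model, and Cyp2f2, Cyp4a12a, Ugt2b1 and Mup20 did not (adjusted p = 0.0604 to 0.449).

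Transcription factors of hepatocytes were lower in 14 of 23 cases and higher in 1, with a median of -1.27, which was -0.52 under spike-in scaling (1, 0 and 3 higher and 8, 8 and 4 lower under the 3 alternatives). Hnf4a, the central factor of hepatocyte identity, was at 7.33, 6.90, 6.77, 7.12 and 6.87 in p53f/f HCC and at 5.70, 4.13, 5.34, 5.55 and 5.47 in ICC. Every ICC was lower, and 3733 T3 stood below the other 4. Hnf4a fell by 1.76 ± 0.29 (adjusted p = 0.00141), in the row model with adjusted p = 0.0445. Without 3733 T3 it fell by 1.49. Cebpa fell by 1.40 ± 0.24 (adjusted p = 0.00173). Among nuclear receptors, Ppara, the sensor of fatty acids, fell by 2.74 (adjusted p = 0.00302), the drug sensor Nr1i2 by 2.23 (adjusted p = 0.0106) and Nr0b2, the feedback repressor of bile acid synthesis, by 2.12 (adjusted p = 0.00051). The member that rose was Tox, by 3.36 ± 0.38 (adjusted p = 0.000195), a chromatin factor better known from T cells. Cebpa, Ppara and Nr0b2 also passed the row model, and Nr1i2 and Tox did not (adjusted p = 0.0545 to 0.0774).

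Of 21 transporters of bile acids, drugs and sterols, 13 fell and 1 rose, with a median of -1.69, which was -0.95 under spike-in scaling (0, 0 and 1 higher and 5, 4 and 7 lower under the 3 alternatives). Abcg5 and Abcg8 are the partners that export sterols into bile. Abcg5 was at 6.24, 5.07, 5.05, 6.16 and 5.89 in p53f/f HCC and at 1.38, -1.59, 0.21, 2.14 and 2.11 in ICC and fell by 4.83 ± 0.65 (adjusted p = 0.000508). Abcg8 was not well above background on any ICC array, which puts it at least 8.06-fold lower there (adjusted p = 4.41e-05). The organic anion transporter Slc22a7 fell by 4.30 ± 0.98 (adjusted p = 0.00765). The bile salt export pump Abcb11 fell by 1.69 ± 0.60, close to the threshold (adjusted p = 0.0492). Abcb11 no longer passed when any 1 tumor other than 3731 T3, 3733 T3 and 3977 T5 was left out (-1.59 to -1.87, adjusted p = 0.056 to 0.0931). Slc10a1, the uptake carrier for bile acids, differed by -0.77 ± 0.21 (adjusted p = 0.0159), under 2-fold. Abcc1, an export pump that most cell types use, rose by 1.77 ± 0.42 (adjusted p = 0.00929). Abcg5 and Abcg8 also passed the row model, and Slc22a7, Abcb11 and Abcc1 did not (adjusted p = 0.24 to 0.338).

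The matrix of the stroma had the largest share of higher members among the lists. Of 32 collagens and matrix proteins tested, 26 rose and 0 fell, with a median log2 fold change of 3.28 against -0.17 over all genes. In the row model 20 rose, in the slide model 25 and under spike-in scaling 28, with 0 falling in each. Col1a1, the chain of the most abundant fibrillar collagen, was at 1.29, 3.19, 3.61, 1.18 and 3.15 in p53f/f HCC and at 6.15, 6.45, 6.93, 5.97 and 6.93 in ICC. It rose by 4.0 ± 0.49 (adjusted p = 0.000293), in the row model with adjusted p = 0.0117. Col3a1 rose by 3.61 ± 0.45 (adjusted p = 0.000311) and Col8a1 by 4.84 ± 0.69 (adjusted p = 0.000688). The crosslinking enzyme Lox rose by 5.33 ± 0.56 (adjusted p = 0.000114) and thrombospondin 1 (Thbs1) by 4.58 ± 0.36 (adjusted p = 2.18e-05). Postn, which encodes periostin, rose by only 1.29 ± 0.32 (adjusted p = 0.0105). Of these, Postn alone did not pass the row model (adjusted p = 0.527), and it stayed just under 2-fold without 3681 T1. The p53LKO HCC lay between or near the p53f/f HCC, with list medians of -0.09 to 1.71 against -0.98 to 0.42 in p53f/f HCC and 1.89 to 3.21 in ICC.

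Of 26 matrix proteases and inhibitors, 18 rose and 1 fell (median 2.26, 15, 11 and 21 higher and 0, 0 and 0 lower under the 3 alternatives). Mmp7, matrilysin, which epithelial cells secrete, was at -3.36, -2.85, -1.10, -3.86 and 0.68 in p53f/f HCC and at 5.90, 6.85, 6.23, 6.72 and 6.63 in ICC. The ICC lay close together, all above every p53f/f HCC, and the rise was 8.57 ± 0.74 (adjusted p = 3.75e-05). Timp1, an inhibitor of these proteases, was at -1.04, -0.03, 0.20, -1.26 and 0.78 and at 4.96, 5.87, 6.0, 5.35 and 5.68 and rose by 5.84 ± 0.39 (adjusted p = 6.66e-06). In p53LKO HCC, Timp1 was at 2.51, 2.43, 4.09, 3.18 and 3.93. Mmp2, the gelatinase of fibroblasts, rose by 5.65 ± 0.63 (adjusted p = 0.000174). Plau, the urokinase gene, rose by 1.17 ± 0.33 (adjusted p = 0.0204), and Mmp19 fell by 1.16 ± 0.34 (adjusted p = 0.0245). Plau no longer passed without 3976 T8 (1.03, adjusted p = 0.0516). Mmp19 no longer passed without 3716 T1 or 3733 T3 or 5283 T20 (-0.98 to -1.04, adjusted p = 0.0513 to 0.0581). Mmp7, Timp1 and Mmp2 also passed the row model, and Plau and Mmp19 did not (adjusted p = 0.0903 to 0.397).

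Laminins and integrins rose in 11 of 23 cases and fell in 1 (median 1.12, 4, 3 and 17 higher and 1, 0 and 0 lower under the 3 alternatives). Itgb4, the integrin that anchors epithelium to its basement membrane, rose by 4.93 ± 0.47 (adjusted p = 6.69e-05). Itgb4 was at -2.66, -2.25, -2.35, -2.84 and -0.62 in p53f/f HCC and at 2.47, 2.82, 3.28, 1.66 and 3.69 in ICC. For Itgb8 no p53f/f array was well above background, and it was at least 4.77-fold higher in ICC (adjusted p = 0.000134). The member counted as lower, Lamc3, was well above background in no ICC, so that its fall has a bound of only 1.35-fold (adjusted p = 0.0195). It was at -4.03, -2.11, -1.67, -2.41 and -1.20 in p53f/f HCC and -4.55, -3.75, -3.38, -4.54 and -3.69 in ICC, while p53LKO HCC were at 4.04, -0.65, 3.09, 4.14 and 4.30. Itgb4 also passed the row model, and Itgb8 and Lamc3 did not (adjusted p = 0.104 to 0.854), and the sign of Lamc3 turned there.

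Of 23 genes of stellate cells and fibroblasts, 13 rose and 0 fell (median 1.91, 9, 8 and 17 higher and 0, 0 and 0 lower under the 3 alternatives). Pdpn (podoplanin) rose by 6.40 ± 0.82 (adjusted p = 0.000371), and the matrix-associated genes Fbln1 by 6.25 ± 0.63 (adjusted p = 9.8e-05) and Mfap5 by 5.78 ± 0.45 (adjusted p = 1.96e-05). Pdgfrb, the receptor that marks stellate cells and pericytes, was at -0.87, 0.92, 1.37, 0.90 and 1.29 and at 2.22, 2.85, 3.75, 2.44 and 3.13. It rose by 2.16 ± 0.44 (adjusted p = 0.00431), without passing the row model (adjusted p = 0.103). The contractile markers of myofibroblasts did not pass. Acta2, smooth muscle actin, was at 1.26, 1.06, 2.02, 1.19 and 2.43 in p53f/f HCC and at 2.49, 1.91, 2.32, 1.96 and 2.84 in ICC, a difference of 0.71 ± 0.30 (adjusted p = 0.0885). Under spike-in scaling Acta2 differed by 1.46 and passed (adjusted p = 0.0162). Desmin (Des) differed by 0.53 ± 0.34 (adjusted p = 0.249).

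**Figure D3:**
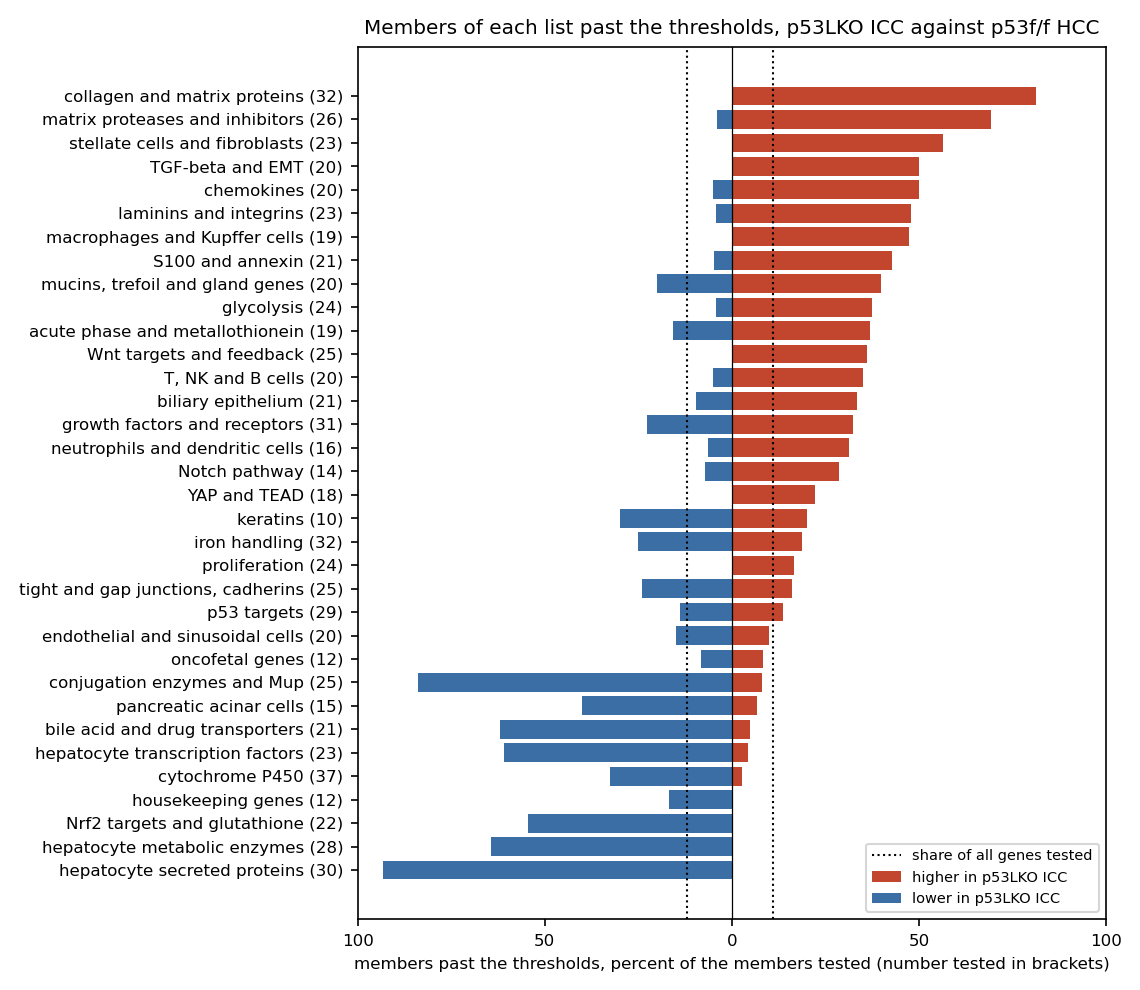
Share of the tested members of each list that were called, to the right for higher and to the left for lower in ICC, in percent, with the number tested in brackets. Dotted lines mark the shares over all genes, 10.9% higher and 11.9% lower. Matrix lists reach farthest to the right and hepatocyte lists farthest to the left.

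Among the largest rises were gland and mucosal defence genes. The 10 probes with the largest measured rise without overlap included 2 for Gp2. For 7 of them no p53f/f array was well above background, so their rank is not an order of true sizes. Reg3b, an antimicrobial lectin of gut lining and pancreas, was at -6.68, -5.62, -6.35, -6.26 and -6.95 in p53f/f HCC and at 6.74, 8.35, 4.92, 7.25 and 7.67 in ICC. No p53f/f array was above background for it, so the level in ICC was at least 3026-fold higher (adjusted p = 2.59e-07). Gp2, a membrane glycoprotein of pancreatic granules and gut epithelium, was at -5.25, -4.14, -4.32, -5.79 and -4.96 and at 8.21, 8.91, 8.10, 8.11 and 8.82 and at least 7338-fold higher (adjusted p = 9.32e-09). By its other probe, Gp2 was at least 2249-fold higher. Reg3g rose by 12.43 ± 0.96 (adjusted p = 1.83e-05) and was well above background in 1 p53f/f HCC. Dmbt1, a mucosal scavenger protein, was at least 1219-fold higher and Fcgbp, a mucin-like protein of mucus, at least 482-fold. In p53LKO HCC the levels were -5.23, -4.19, -7.13, -6.94 and -5.26 for Reg3b and -4.80, -3.01, -2.98, -4.26 and -2.14 for Gp2, so these were also low in HCC without p53, although Gp2 was well above background in 3 of those. Reg3b, Gp2, Reg3g, Dmbt1 and Fcgbp also passed the row model. Within p53LKO HCC, lower minus upper row was 1.73 for Reg3b and -0.78 for Gp2.

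Further probes of that top group were the uncharacterised 1700016F12Rik (at least 1458-fold higher), Lbhd2, with a difference of 11.47 ± 0.43, and Amph, encoding amphiphysin of endocytosis, with 8.78 ± 0.51. Lbhd2 and Amph were each well above background in 1 of the 5 p53f/f HCC, so both sizes rest on levels near background. All of them passed the row model. Of the 20 tested genes on the list of mucins, trefoil factors and gland products, 8 rose and 4 fell (median 0.73, but -0.82 on the members well above background on all 10 arrays, and 8, 7 and 9 higher and 2, 1 and 1 lower under the 3 alternatives). The classical gastric mucin Muc5ac fell by 1.18 ± 0.22 (adjusted p = 0.00309). Tff3, the trefoil factor of mucus-secreting epithelium, was at 8.24, 4.92, 5.85, 6.57 and 4.32 in p53f/f HCC and at 2.16, -0.78, 0.76, -1.20 and 2.58 in ICC and fell by 5.28 ± 0.88 (adjusted p = 0.00163). In p53LKO HCC, Tff3 was at 3.22, 1.28, 7.08, 7.42 and 7.99, where the first 2 values belong to the lower row. Tff3 passed the slide model (-4.11, adjusted p = 0.0269), while the row model gave -0.03 (adjusted p = 0.993). The fall of Tff3 therefore cannot be told apart from the slide row, whose term also holds the slide.

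Genes of pancreatic acinar cells, which also make Reg3b and Gp2, mostly did not rise. Of 15 tested, 1 rose and 6 fell (median -0.74, and 0.01 under spike-in scaling, 1, 1 and 1 higher and 3, 2 and 2 lower under the 3 alternatives). The one that rose was Rnase1, by 2.90 ± 0.38 (adjusted p = 0.000417), and Cela1, an elastase, fell by 4.83 ± 0.65 (adjusted p = 0.00051). Of the enzymes that define these cells, Cpa1 was well above background on 2 p53f/f HCC arrays and 0 ICC arrays and Prss2 on 0 arrays of either group.

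**Figure D4:**
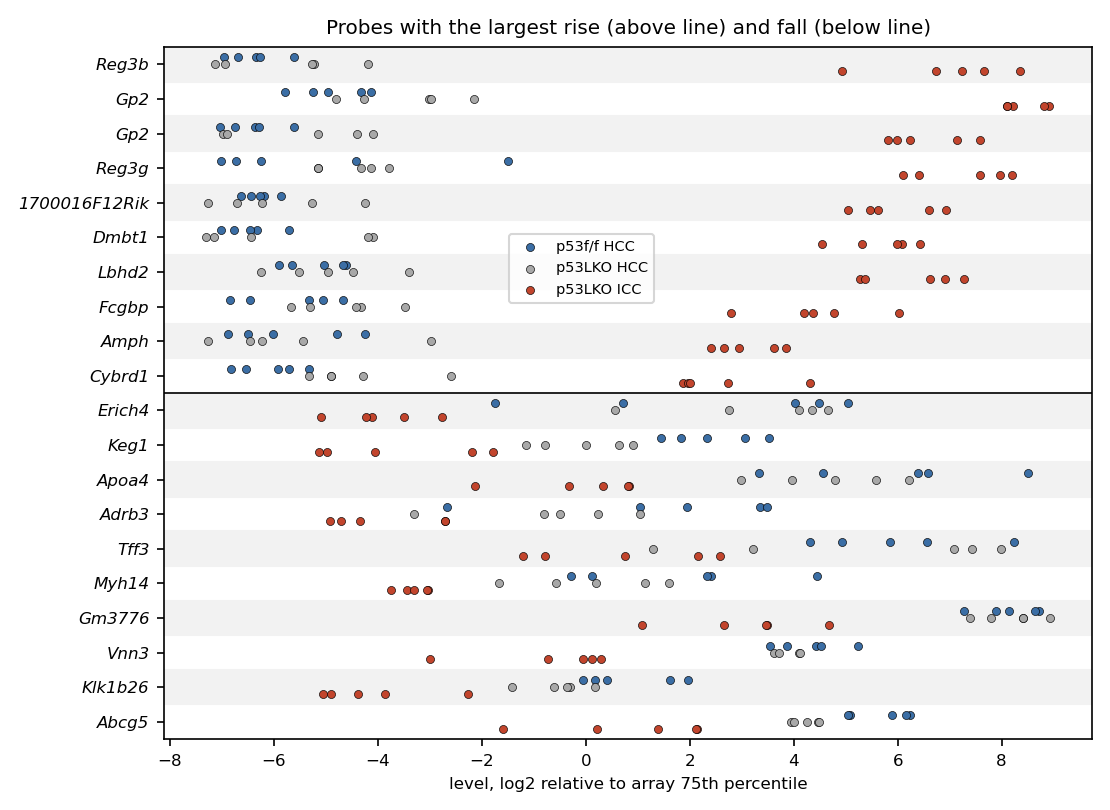
Levels of the 10 probes with the largest rise (above the line, Gp2 by 2 probes) and the 10 with the largest fall (below the line) among those past the thresholds without overlap of p53f/f HCC and ICC. The axis is log2 relative to the 75th percentile of the array, with 1 point per tumor. For the rises the p53LKO HCC lay to the left of the ICC, as the p53f/f HCC did.

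The 10 probes with the largest measured fall were of genes of mixed function. Their rank uses the measured levels, also where no ICC array was well above background (Erich4, Myh14 and Klk1b26), so it is not an order of true sizes. Erich4, of little known function, was at least 37.2-fold lower in ICC. A dim probe of Myh14, a nonmuscle myosin, was at least 23-fold lower (adjusted p = 0.000829), whereas the brighter probe of this gene differed by -0.30 ± 0.25 (adjusted p = 0.371), with the sign turned under spike-in scaling. A probe now listed under the kallikrein Klk1b26, which has close copies, was at least 11.5-fold lower (adjusted p = 0.000203). Apoa4, an apolipoprotein of lipid absorption, was at 8.51, 4.56, 3.34, 6.58 and 6.38 in p53f/f HCC and at 0.34, -2.13, 0.82, 0.81 and -0.33 in ICC and fell by 5.97 ± 0.90 (adjusted p = 0.000939). Keg1 fell by 6.06, the adrenergic receptor gene Adrb3 by 5.31, Gm3776, a glutathione transferase gene, by 5.06 and Vnn3, a pantetheinase, by 4.99, with adjusted p from 0.000178 to 0.00383. In ICC, Keg1 was well above background on 2 of 5 arrays and Adrb3 on 1, so their sizes rest on levels near background. Keg1, Gm3776, Vnn3 and the Klk1b26 probe also passed the row model. Erich4, Apoa4, Adrb3 and the dim Myh14 probe did not (adjusted p = 0.107 to 0.298).

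Of 21 S100 and annexin genes, which encode calcium-binding proteins, 9 rose and 1 fell (median 0.95, 5, 5 and 14 higher and 1, 0 and 0 lower under the 3 alternatives). Anxa8 was at -3.57, -3.66, -3.17, -3.75 and -2.42 in p53f/f HCC and at 2.36, 3.77, 3.66, 3.07 and 3.35 in ICC and rose by 6.56 ± 0.33 (adjusted p = 1.27e-06). S100a6 rose by 4.02 ± 0.36 (adjusted p = 4.41e-05), Anxa3 by 3.00 ± 0.37 (adjusted p = 0.000281) and S100b by 4.94 ± 1.27 (adjusted p = 0.0132). Of these, S100b did not pass the row model (adjusted p = 0.119).

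Of 29 genes known as p53 targets, 4 rose and 4 fell, so 27.6% were called, near the 22.8% of all genes. Their median log2 fold change was -0.14, which turned to 0.61 under spike-in scaling (3, 2 and 6 higher and 2, 1 and 0 lower under the 3 alternatives). Cdkn1a, the p21 inhibitor of the cell cycle, was at 0.78, 1.37, 2.13, 1.37 and 1.05 in p53f/f HCC and at -0.72, -0.85, 0.33, -0.44 and 0.14 in ICC and fell by 1.65 ± 0.31 (adjusted p = 0.00279), while a dimmer probe of the gene gave -0.39 and did not pass. The antiproliferative gene Btg2 fell by 1.70 ± 0.44 (adjusted p = 0.0144). Mdm2, the ligase that limits p53, differed by -0.25 ± 0.18 (adjusted p = 0.3), and its sign turned under spike-in scaling. Pmaip1, a death-inducing BCL2 relative, rose by 3.74 ± 0.40 (adjusted p = 0.000133) and Ak1, an adenylate kinase, by 3.71 ± 0.42 (adjusted p = 0.000177). In p53LKO HCC, Mdm2 was at 2.77, 3.00, 3.11, 2.64 and 2.69, where p53f/f HCC were at 3.63, 3.62, 4.21, 3.58 and 3.73 and ICC at 3.49, 3.64, 3.56, 3.18 and 3.67. Pmaip1 and Ak1 also passed the row model, and Cdkn1a and Btg2 did not (adjusted p = 0.3 to 0.315).

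Of 24 cell cycle genes tested, 4 rose and 0 fell, so 16.7% were called against 22.8% of all genes. The median was 0.53, and 1.28 under spike-in scaling (1, 0 and 11 higher and 0, 0 and 0 lower under the 3 alternatives). All 4 that rose were MCM subunits of the replication helicase. Mcm4 rose by 1.32 ± 0.26 (adjusted p = 0.00403). The proliferation marker Mki67 was at 2.49, 1.34, 2.62, -0.46 and 2.11 and at 3.11, 2.81, 2.11, 2.61 and 3.23 and differed by 1.15 ± 0.53 (adjusted p = 0.113), and Top2a by 1.09 ± 0.47 (adjusted p = 0.0979). Top2a passed without 3716 T1 (1.36, adjusted p = 0.0497).

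Of 14 Notch genes, 4 rose and 1 fell (median 0.81, 3, 1 and 7 higher and 1, 0 and 0 lower under the 3 alternatives). The ligand Jag1, which directs duct formation, rose by 2.07 ± 0.32 (adjusted p = 0.00111) and the target Heyl by 2.10 ± 0.37 (adjusted p = 0.00215). The ligand Dll4 of vessels fell by 1.69 ± 0.55 (adjusted p = 0.0352), and Hes1 differed by -0.86 ± 0.26 (adjusted p = 0.0275), under 2-fold. Dll4 no longer passed without 3715 T2 or 3717 T1 or 3731 T3 or 3733 T3 or 3977 T5 (-1.54 to -1.69, adjusted p = 0.0584 to 0.0735). Hes1 passed without 3681 T1 (-1.02, adjusted p = 0.0146). Of 18 genes of YAP and TEAD, 4 rose and 0 fell (median 0.38, 2, 0 and 10 higher and 0, 0 and 0 lower under the 3 alternatives), with Ccn2 (connective tissue growth factor) up by 2.03 ± 0.29 (adjusted p = 0.000725) and Tead1 by 1.98 ± 0.35 (adjusted p = 0.00225). A dimmer Tead1 probe gave -0.29, and Yap1 itself differed by -0.46 ± 0.24 (adjusted p = 0.155), with the sign turned under spike-in scaling. With 22.2% of its members called, the YAP and TEAD list lay near the 22.8% of all genes.

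Of 25 Wnt targets and feedback genes, 9 rose and 0 fell (median 1.40, 4, 3 and 15 higher and 0, 0 and 0 lower under the 3 alternatives). The largest rises were of secreted antagonists, with Sfrp1 up by 5.57 ± 0.58 (adjusted p = 0.000114), Dkk3 by 3.51 ± 0.49 (adjusted p = 0.000629) and Dkk2 at least 18.4-fold higher (adjusted p = 2.01e-05), and these 3 passed the row model. The target genes Axin2, Lgr5 and Glul differed by 1.68 ± 0.83, 2.92 ± 1.05 and 1.49 ± 0.70 and did not pass (adjusted p from 0.0527 to 0.138). This depended on the scaling, since Axin2 passed under spike-in scaling (2.43, adjusted p = 0.0393). In the row model the sign of Axin2 turned (-0.30, adjusted p = 0.916). Lgr5 passed without 3715 T2 or 3717 T2 (3.44 to 3.51, adjusted p = 0.0267 to 0.0362). Of 20 genes of TGF-beta signalling and epithelial-mesenchymal transition, 10 rose and 0 fell (median 1.12, 5, 2 and 13 higher and 0, 0 and 0 lower under the 3 alternatives). Ltbp2, a matrix protein related to TGF-beta binding proteins, rose by 5.48 ± 0.93 (adjusted p = 0.00175), the transcription factor Snai1 by 2.92 ± 0.31 (adjusted p = 0.000117) and Tgfb1 by 1.46 ± 0.30 (adjusted p = 0.00489). Snai1 also passed the row model, and Ltbp2 and Tgfb1 did not (adjusted p = 0.0509 to 0.0788).

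Growth factors and receptors went both ways, with 10 of 31 higher and 7 lower (4, 4 and 10 higher and 4, 4 and 0 lower under the 3 alternatives). Pdgfb, a growth factor for stellate cells, rose by 2.38 ± 0.35 (adjusted p = 0.000799). Egfr, abundant in hepatocytes, fell by 1.61 ± 0.32 (adjusted p = 0.0036) and Met, the receptor of hepatocyte growth factor, by 1.61 ± 0.46 (adjusted p = 0.0216). Met no longer passed without 3717 T1 (-1.42, adjusted p = 0.0524). Of 12 oncofetal genes, 1 rose and 1 fell (16.7% called, 0, 1 and 2 higher and 1, 0 and 1 lower under the 3 alternatives). Afp, alpha-fetoprotein, was at 6.90, 2.12, 1.87, 6.01 and 5.31 in p53f/f HCC and at -0.03, 0.16, 0.61, -0.61 and 0.64 in ICC and fell by 4.29 ± 0.91 (adjusted p = 0.00547). Its values in p53LKO HCC were 2.43, 1.31, 6.03, 6.54 and 7.74, with the 2 tumors of the lower row first, and in the row model its sign turned (0.61, adjusted p = 0.83). Igf2 rose by 2.16 ± 0.76 (adjusted p = 0.0477), without passing the row model (adjusted p = 0.0912). Igf2 no longer passed when any 1 tumor other than 3733 T3 and 3977 T5 was left out (1.66 to 2.32, adjusted p = 0.0649 to 0.111).

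Iron handling, the question the study was built on, did not move as 1 group. Of 32 genes tested, 6 rose and 8 fell, with a median of -0.19 that turned under quantile normalization (0.05) and spike-in scaling (0.56). There were 3, 2 and 12 higher and 3, 1 and 3 lower under the 3 alternatives. Of the genes for uptake and transport, Cybrd1, the duodenal ferric reductase, was at -6.83, -5.92, -6.54, -5.32 and -5.71 in p53f/f HCC and at 1.88, 1.97, 2.73, 2.01 and 4.32 in ICC. It was above background in 0 p53f/f HCC and in all ICC, and at least 143-fold higher (adjusted p = 2.9e-06), also in the row model (adjusted p = 0.0002). The reductase Steap1 rose by 4.43 ± 0.46 (adjusted p = 0.000114) and the heme exporter Flvcr1 by 2.78 ± 0.28 (adjusted p = 8.83e-05). Tfrc, the transferrin receptor, was at -1.32, -0.21, -0.24, -0.17 and -0.77 and at 0.66, -0.09, -0.96, 0.04 and -0.76 and differed by 0.32 ± 0.34 (adjusted p = 0.48). The iron exporter ferroportin (Slc40a1) fell by 1.77 ± 0.41 (adjusted p = 0.00797).

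Among the genes that set hepcidin, the hormone that blocks ferroportin, the cofactor hemojuvelin (Hjv) fell by 2.89 ± 0.70 (adjusted p = 0.00983), the protease Tmprss6 that cleaves it by 2.67 ± 0.48 (adjusted p = 0.00243), and the ligand Bmp6 was at least 2.48-fold lower (adjusted p = 0.000877). Hepcidin itself (Hamp) was at 3.38, 3.50, 4.50, 2.30 and 2.16 in p53f/f HCC and at 3.97, 4.72, 4.70, 5.65 and 7.31 in ICC. The groups overlapped, and the rise of 2.10 ± 0.63 passed (adjusted p = 0.0253) but was 0.02 in the row model (adjusted p = 0.993) and did not pass the slide model (adjusted p = 0.136). Hamp no longer passed without 3717 T1 or 3717 T2 (1.85 to 1.88, adjusted p = 0.0591 to 0.06). In p53LKO HCC, Hamp was at 3.54, 3.25, 2.85, 0.44 and 0.67. Flvcr1 and Bmp6 also passed the row model, and Steap1, Slc40a1, Hjv and Tmprss6 did not (adjusted p = 0.0713 to 0.149).

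Targets of the oxidative stress factor Nrf2 and glutathione genes fell in 12 of 22 cases and rose in 0 (median -1.16, and -0.41 under spike-in scaling, 0, 0 and 2 higher and 9, 4 and 6 lower under the 3 alternatives). Nqo1, a quinone reductase, fell by 3.47 ± 0.56 (adjusted p = 0.00139), Gsta2 by 3.88 ± 0.62 (adjusted p = 0.00126) and Gstm4 by 3.18 ± 0.53 (adjusted p = 0.00168). Of 24 genes of glycolysis, 9 rose and 1 fell (median 0.39, 4, 3 and 10 higher and 0, 0 and 0 lower under the 3 alternatives), among them the lactate exporter Slc16a3 with 3.52 ± 0.27 (adjusted p = 1.73e-05), the regulator Pfkfb3 with 2.42 ± 0.37 (adjusted p = 0.000954, and 0.89 by a dimmer probe) and Pkm with 1.82 ± 0.32 (adjusted p = 0.00204). Of 19 acute phase and metallothionein genes, 7 rose and 3 fell (4, 0 and 8 higher and 0, 0 and 0 lower under the 3 alternatives). Mt2 rose by 3.04 ± 0.56 (adjusted p = 0.00281) and serum amyloid Saa1 by 2.90 ± 0.57 (adjusted p = 0.00379), while Lcn2, an iron-scavenging lipocalin, fell by 1.42 ± 0.36 (adjusted p = 0.0128). Nqo1, Gsta2, Gstm4, Slc16a3 and Pkm also passed the row model, and Pfkfb3, Mt2, Saa1 and Lcn2 did not (adjusted p = 0.0585 to 0.231).

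Genes of immune cells were mostly higher where they passed. Of 19 macrophage and Kupffer cell genes, 9 rose and 0 fell (median 1.0, 4, 2 and 11 higher and 0, 0 and 0 lower under the 3 alternatives). Lyz2, lysozyme, rose by 3.25 ± 0.21 (adjusted p = 5.8e-06) and Trem2, a receptor of lipid-laden macrophages, by 3.02 ± 0.50 (adjusted p = 0.00154). Cd68 rose by 1.0 ± 0.31 (adjusted p = 0.028), and the Kupffer cell gene Clec4f differed by -0.93 ± 0.92 (adjusted p = 0.451). Cd68 no longer passed without 3681 T1 or 3976 T8 or 5283 T20 (0.77 to 0.95, adjusted p = 0.0525 to 0.0641). Of 16 neutrophil and dendritic cell genes, 5 rose and 1 fell (4, 3 and 6 higher and 1, 1 and 1 lower under the 3 alternatives), with the integrin Itgax of dendritic cells up by 2.84 ± 0.25 (adjusted p = 4.73e-05). Of 20 lymphocyte genes, 7 rose and 1 fell (2, 1 and 9 higher and 1, 0 and 1 lower under the 3 alternatives). Jchain of plasma cells rose by 4.07 ± 1.14 (adjusted p = 0.019), the T cell receptor component Cd3g by 2.11 ± 0.57 (adjusted p = 0.0166) and the chemokine receptor Cxcr6 by 2.08 ± 0.41 (adjusted p = 0.00387), whereas Cd4 fell by 2.53 ± 0.60 (adjusted p = 0.00928), and the pan-T cell gene Cd3e differed by -0.64 ± 0.20 (adjusted p = 0.0319), under 2-fold and with the sign turned under spike-in scaling. Cd8a, a defining T cell gene, differed by -0.87 ± 0.55 and did not pass (adjusted p = 0.237). It was well above background on 5 p53f/f arrays and 0 ICC arrays. Lyz2 and Itgax also passed the row model, and Trem2, Cd68, Jchain, Cd3g, Cxcr6 and Cd4 did not (adjusted p = 0.0725 to 0.457).

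Of 20 chemokine genes, 10 rose and 1 fell (median 1.69, 8, 5 and 11 higher and 0, 0 and 0 lower under the 3 alternatives). Ccl17, which attracts T helper and regulatory cells, was at -4.29, -3.35, -4.36, -4.23 and -3.24 in p53f/f HCC and at 2.23, 2.55, 2.37, 2.24 and 1.5 in ICC and rose by 6.07 ± 0.29 (adjusted p = 9.96e-07). Ccl8 rose by 5.21 ± 0.78 (adjusted p = 0.000893) and the neutrophil attractant Cxcl5 by 3.05 ± 0.73 (adjusted p = 0.00956). Cxcl1 fell by 1.96 ± 0.50 (adjusted p = 0.0123). Ccl17 and Ccl8 also passed the row model, and Cxcl5 and Cxcl1 did not (adjusted p = 0.0782 to 0.308).

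Of 20 endothelial and sinusoidal genes, 2 rose and 3 fell (median -0.02, and 0.72 under spike-in scaling, 1, 0 and 6 higher and 0, 0 and 0 lower under the 3 alternatives). That is 25.0% called, near the 22.8% of all genes. The rises were of Fcgr2b, an Fc receptor of sinusoids and immune cells, by 1.42 ± 0.28 (adjusted p = 0.00352), and of Cd34, a marker of capillaries, by 1.36 ± 0.40 (adjusted p = 0.0227, and 0.10 by a dimmer probe), which did not pass the row model (adjusted p = 0.154 and adjusted p = 0.0568). Cd34 no longer passed without 3681 T1 or 3733 T3 or 3976 T8 (1.20 to 1.26, adjusted p = 0.0527 to 0.0566). Stab2, the hyaluronan receptor of liver sinusoids, fell by 2.03 ± 0.62 (adjusted p = 0.0278), and Lyve1 by 1.81 ± 0.57 (adjusted p = 0.0313), neither of which passed the row model (adjusted p = 0.0686 and adjusted p = 0.163). Stab2 no longer passed without 3681 T1 or 3717 T1 or 3731 T3 (-1.93 to -1.97, adjusted p = 0.0527 to 0.0621). Lyve1 no longer passed when any 1 tumor other than 3681 T1, 3716 T1, 3976 T8 and 3977 T5 was left out (-1.39 to -1.81, adjusted p = 0.0542 to 0.0706). Clec4g, a lectin of the same cells, differed by -1.88 ± 0.83 (adjusted p = 0.103). Clec4g passed without 3977 T5 (-2.51, adjusted p = 0.0223). Alas2 of red blood cells fell by 2.75 ± 0.32 (adjusted p = 0.000207), one of 2 lower among 5 genes of those cells (0, 0 and 0 higher and 1, 1 and 1 lower under the 3 alternatives). Housekeeping genes had a median of 0.01 over 12 tested, 0 higher and 2 lower (0, 0 and 4 higher and 2, 0 and 0 lower under the 3 alternatives). Under spike-in scaling, which adds the same amount to every difference, the housekeeping median was 0.76. Of 7 sex-linked genes, 3 were bright enough to be tested and 0 were called. Their array medians ran from -1.17 to 1.80 in p53f/f HCC and from 0.06 to 1.02 in ICC. This does not settle the sex of the mice.

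**Figure D5:**
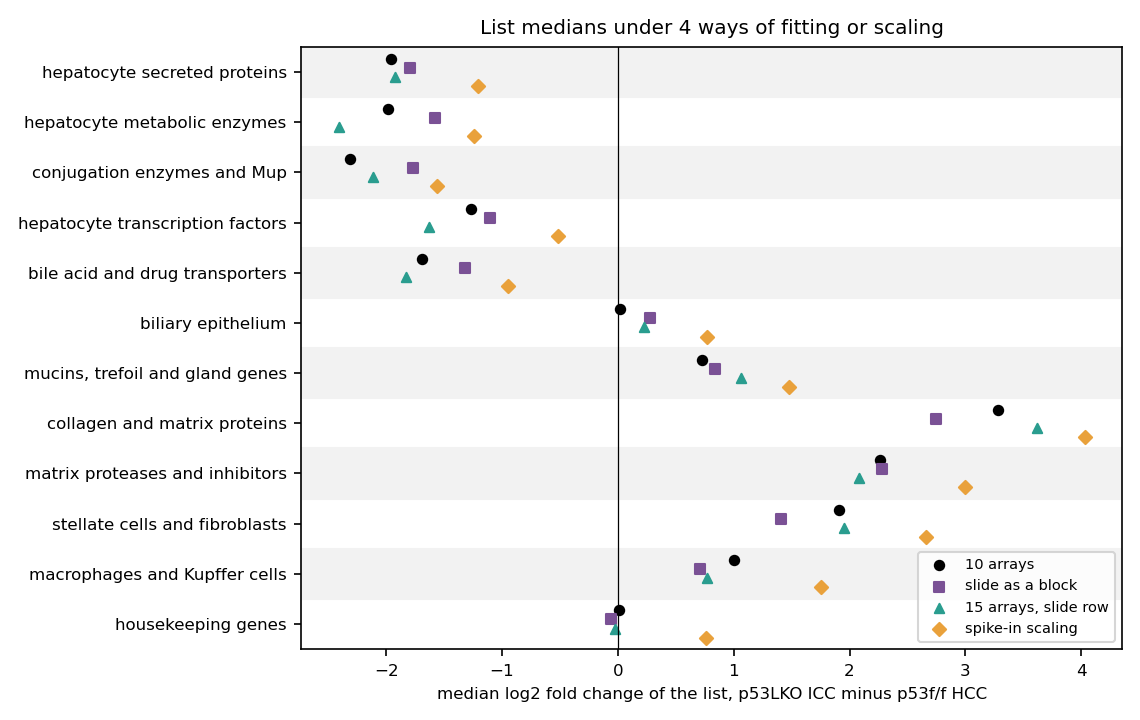
Median log2 fold change of 12 lists, ICC minus p53f/f HCC, under the fit of 10 arrays, the slide model, the row model and scaling to spike-in probes. The medians of the hepatocyte lists stayed below 0 and those of the matrix, protease, fibroblast and macrophage lists above 0 under all 4, while the biliary and housekeeping medians lay near 0 except under spike-in scaling.

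The p53LKO HCC share the genotype with the ICC and the entity with the p53f/f HCC, and the following medians over the tested members come from 1 fit of all 15 arrays, in which each pair of comparisons shares a group. For secreted plasma proteins the median was -1.55 for ICC minus p53LKO HCC and -0.48 for p53LKO HCC minus p53f/f HCC. For collagens and matrix proteins it was 2.17 and 0.69, and for matrix proteases 1.84 and 0.81. For the cell cycle list it was -0.37 and 0.93. For p53 targets it was 0.51 and -0.33, and for the biliary list 0.11 and -0.06. Epcam was at -4.41, -4.10, -5.03, -6.93 and -6.93, Krt19 at -1.24, -1.61, -1.74, -3.80 and -4.64 and Spp1 at 1.68, 0.98, 2.88, 1.5 and 1.47 in p53LKO HCC. All of these Krt19 levels lay below every ICC, and so did those of Epcam and Spp1.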

How the data were processed

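Groups follow the labels of the samples. Scans were read by the authors with Agilent Feature Extraction 10.7.3.1, and for every spot the deposited files hold a processed intensity, with background and spatial trends removed, and a flag for signals well above background. Probe positions refer to mm9. The deposited value table of the authors holds log2 values centred per probe on different sets of arrays for HCC and ICC. It was therefore not used for this comparison.

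From the log2 intensity, taken as the mean of replicate spots, the 75th percentile of all noncontrol probes on that array was subtracted. Control spots were left out, as were 103 values marked as outliers. A probe was tested if its signal was well above background on 3 or more arrays of either group. Differences were tested with lmFit and eBayes of limma 3.58.1 in R 4.3.3 and Benjamini-Hochberg adjustment over the 35703 probes, and were called at an adjusted p under 0.05 with a change of over 2-fold. The code was checked on simulated data. A gene is represented by its brightest probe, named as in RefSeq (22569 of 24074 symbols matched). Where no array of a group was well above background, the fold is a bound. It sets the mean of the brighter group against, per array of the dimmer group, the higher of the probe's own level and the lowest level well above background. Figures were drawn with matplotlib 3.10.9 in Python 3.11.15. The number of arrays and the signal over background limit the precision. With 5 arrays a group, an exact permutation test over the 252 splits cannot go below p = 0.00794. A gene without overlap reaches that value by construction, so it adds nothing to the lack of overlap.

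The 36 gene lists and the comparison itself were chosen with earlier results of these data known. Named are the defining genes of each list, in each list up to 3 rises and 3 falls of the largest size past the thresholds, Trp53, and, among probes without overlap, the 10 that rose most and the 10 that fell most. Cd24a, Ehf and Bicc1 were added after their values were seen, to complete a count. Not every gene that this rule names is reported here. The alternatives tried were other background corrections and scalings, filters, thresholds and tests, slide and slide row as terms, mouse as a random block and leaving out each tumor in turn.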

Additional observations from a re-analysis of the deposited data

Results flagged for a closer look

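Single tumors stood apart from the other 4 of their group in 19 of 326 sets of 5 values, the values of 163 named genes in each group, by Dixon's test. Chance gives about 1 in 20. The levels are log2 relative to the 75th percentile of the array.

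Tumor 3717 T2 was the high value of the p53f/f HCC for 4 genes. Epcam was at -1.27 there and at -6.50 to -5.05 in the others, Itgb4 at -0.62 against -2.84 to -2.25, Jag1 at 0.04 against -1.53 to -1.26 and Anxa3 at 0.50 against -1.64 to -1.07. These genes of epithelium and ducts were higher in ICC than in p53f/f HCC, and 3717 T2 was also the highest p53f/f HCC for Krt19, Krt7 and Spp1. It is the only p53f/f HCC on slide 2, so tumor and slide cannot be told apart.

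ICC 3733 T3 was the low value for 4 hepatocyte genes, with Hnf4a at 4.13 against 5.34 to 5.70, Gsta2 at 1.29 against 3.77 to 4.61, Mup20 at 4.74 against 7.45 to 8.30 and Hjv at -4.76, not well above background, against -1.39 to -0.35. ICC 5283 T20 was low for Krt7, at -3.68 against -1.15 to -0.73, and was at -2.74 against -4.92 to -4.44 for Abcg8, which was not well above background in any ICC. Hes1 was at 0.31 in ICC 3977 T5 against 0.10 to 0.14.

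Among the other p53f/f HCC, 3716 T1 was at 1.39 for Clec4g against 3.36 to 3.95, at -3.33 for Jchain against -0.48 to 0.68, at -0.17 for Fcgr2b against 0.96 to 1.37 and at 4.21 for Mdm2 against 3.58 to 3.73. Tumor 3681 T1 was at 1.92 for Cd68 against 2.92 to 3.23 and at -0.87 for Pdgfrb against 0.90 to 1.37. Mup20 was at 8.21 in 3717 T1 against 9.30 to 9.65. Sult2a4 was at -1.20 in 3715 T2 against -5.57 to -4.62.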

How the results depend on the processing

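No paired analysis was possible because the 2 groups share no mouse and no number that pairs their tumors. Against the 6937 probes that differed (2652 higher, 4285 lower), normexp background correction gave 3750 (1803 higher, 1947 lower), spike-in scaling gave 8261 (7331 higher, 930 lower), no filter 19132 (14655 higher, 4477 lower) and the filter on all 10 arrays 3757 (1899 higher, 1858 lower). The slide as a block gave 3700 (1629 higher, 2071 lower), slide 1 alone 284 (250 higher, 34 lower) and slide 2 alone 264 (146 higher, 118 lower), each with a single tumor of 1 group that was assumed to vary like the others. The slide row in 15 arrays gave 2823 (1207 higher, 1616 lower), and slide and row together 9 (9 higher, 0 lower). An adjusted p under 0.01 gave 4868 (2090 higher, 2778 lower), a fold over 1.5 11426 (3835 higher, 7591 lower), a fold over 4 2098 (1206 higher, 892 lower) and 1 probe per gene 4012 (1923 higher, 2089 lower), by construction. Leaving out 1 tumor gave 6079 to 7516 probes, 2379 to 2756 higher and 3661 to 4783 lower. The counts stayed within 1.5 times under quantile normalization, the scalings to bright probes, the filter on all arrays of a group, 15 arrays without further terms, mouse as a random block, the mean of the 2 tumors of mouse 3717, and the methods' t-test and Mann-Whitney test after Benjamini-Hochberg adjustment. At the unadjusted threshold that the methods give for t-tests in general, not for the arrays, this test called 6956 probes with a 2-fold change.

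Among the 163 named genes examined by Dixon's test, single ones changed sign as follows, and the cause was not tested. With slide and row together these were Axin2 (-1.01), Cftr (-1.61), Cyp2e1 (-2.60), Cyp4a12a (1.06), Hamp (-0.27), Jag1 (-0.34), Jchain (-0.35), Krt19 (-0.55), Krt7 (-1.80), Mmp19 (0.10), Serpina6 (0.37) and Tff3 (3.09). With the row they were Afp (0.61), Axin2 (-0.30), Cftr (-1.19), Cyp2e1 (-1.0) and Lamc3 (0.45). On slide 2 alone they were Acta2 (-0.17), Cyp2e1 (-0.33) and Krt7 (-0.65), on slide 1 alone Cftr (-0.48) and Cps1 (0.08) and with the slide as a block Cftr (-0.14). Under spike-in scaling they were Cd3e (0.11), Krt18 (0.32), Mdm2 (0.50), Myh14 (0.44) and Yap1 (0.29), and under quantile normalization Krt18 (0.22) and Slc10a1 (0.13). Leaving out 1 tumor turned the sign of Cftr, from -0.16 to 0.22. Of the 140 named genes past the thresholds, 106 passed again with the slide as a block, 72 with the row, 6 with slide and row together, 119 under spike-in scaling and 130 to 137 without 1 tumor. Of 23 named genes that had not passed, 9 passed under spike-in scaling. On 7549 of the probes tested no ICC array was well above background, and these carry 1767 of the 4285 lower calls. The authors' value table gave no value for this comparison, because its columns are centred per set of groups.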
